A study of Mus musculus with 10 samples.

Results

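The spiral ligament is the fibrous tissue of the outer wall of the cochlea, the coiled organ of hearing. Its fibrocytes lay down matrix and carry potassium that leaves the hair cells back to the stria vascularis, which builds the electrical potential that hearing needs. Loss of these fibrocytes is a known feature of the ageing mouse cochlea. Described here are 9 genes linked to this tissue, of 29766 genes tested, chosen by symbol and each read from the 1 probe set that carries only that symbol. They are the transcription factor genes Pou3f4 and Tbx18, the genes of secreted proteins Coch, Otos and Otor, the transport genes Aqp1 and Slc26a4, and Car3 and Gsn, which encode a carbonic anhydrase and an actin-severing protein. Not all are confined to fibrocytes: Slc26a4 is best known from epithelial cells beside the ligament, Aqp1 also marks red cells and vessels, Car3 is abundant in muscle and fat, and Gsn is widely expressed.

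The mice were CBA/CaJ, aged 6 months and with normal hearing, a strain that loses hearing late in life and serves as a model of hearing loss with age. All were housed alone. A running wheel was in the cage of 5 samples (runners) and absent for the other 5 (controls), and no other treatment or allele is named. The labels give neither the distance run nor the time with the wheel, and do not state that samples were separate animals. The p-values then cover only the spread among these arrays, and that spread may be technical. The comparison asks whether wheel access went with other expression in the young ear.

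Values are log2 expression as deposited. The median over the genes tested lay between 5.35 and 5.43 on the 10 arrays, and arrays correlated at 0.991 to 0.997 across genes. Of the genes that define the labelled tissue, Dct of the stria had a mean log2 level of 7.99 in controls and Otog of the tectorial membrane 6.82. Other genes of these structures were lower, with Kcnq1 and Tyr of the stria at 5.33 and 4.94 and Tecta of the tectorial membrane at 5.13. Of the hair cell genes, Otof had 6.36, Ocm 6.19, and Slc26a5 and Tmc1 4.44 each. The files hold no detection call, so it cannot be said whether the lowest of these genes were above background. The sample was powdered whole, and bone, marrow, muscle and brain genes were measured with it. In such a sample fewer fibrocytes and less RNA per fibrocyte cannot be told apart. For the genes described here runner 1 was the highest runner and runner 4 often the lowest, so differences are also given without each of them.

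RefSeq sequence before the transcription start (assembly GRCm38.p6) was found for 8 of the 9 genes, all but Car3. The 250 bases before the start are shown for the 2 pairs of genes that varied most alike over the arrays, Coch with Tbx18 and Otor with Slc26a4, 5′ to 3′ on the gene's strand, so that their promoters can be compared. Capitals mark the TATA box (TATAAA) and the GC box (GGGCGG), each searched on both strands.
Coch, chr12:51593091-51593340, plus strand: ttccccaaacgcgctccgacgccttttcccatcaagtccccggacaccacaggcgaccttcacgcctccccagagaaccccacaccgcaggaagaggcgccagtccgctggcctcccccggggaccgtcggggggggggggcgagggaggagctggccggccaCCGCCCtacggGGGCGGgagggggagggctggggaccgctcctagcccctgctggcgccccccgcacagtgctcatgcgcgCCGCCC
Tbx18, chr9:87731261-87731510, minus strand: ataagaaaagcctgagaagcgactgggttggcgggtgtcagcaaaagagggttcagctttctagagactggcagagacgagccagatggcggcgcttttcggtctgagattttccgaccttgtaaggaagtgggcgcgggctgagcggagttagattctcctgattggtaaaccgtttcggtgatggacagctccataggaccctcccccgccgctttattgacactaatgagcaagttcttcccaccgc
Otor, chr2:143078143-143078392, plus strand: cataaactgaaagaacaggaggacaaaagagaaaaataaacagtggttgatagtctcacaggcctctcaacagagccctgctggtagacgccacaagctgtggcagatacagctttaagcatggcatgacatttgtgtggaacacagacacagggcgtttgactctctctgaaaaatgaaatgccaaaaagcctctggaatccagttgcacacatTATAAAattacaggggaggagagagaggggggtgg
Slc26a4, chr12:31559985-31560234, minus strand: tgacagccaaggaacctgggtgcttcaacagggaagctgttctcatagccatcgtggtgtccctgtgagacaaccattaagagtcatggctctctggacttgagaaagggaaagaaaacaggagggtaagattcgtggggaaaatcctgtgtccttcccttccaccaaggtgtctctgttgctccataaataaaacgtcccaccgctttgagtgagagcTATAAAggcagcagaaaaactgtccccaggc
Otor and Slc26a4 each held TATAAA, beginning 35 and 31 bases before the start, a motif found in 12.4% of 32851 promoter windows of that length. Coch held the GC box 3 times, a motif found in 32.7% of windows, and 74.8% of its bases were G or C, against a median of 52.4%. Tbx18 held neither motif. None of the 8 genes held the octamer read by POU factors (ATGCAAAT, in 1.6% of windows), the T-box motif (AGGTGTGA, in 1.12%) or the clock E-box (CACGTG, in 6.02%), overlaps allowed and both strands read. The motifs did not overlap each other in the sequences shown. A match is a description of the letters, not a binding site.

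All 9 genes had a lower mean in runners than in controls, where 49.5% of all genes did, but none passed the test over all genes (limma adjusted p between 0.607 and 0.821). The 9 were chosen with earlier results of these data known, so the shares of all genes set beside them are description only. Of all genes 0.00672% were lower at an adjusted p under 0.05 and none were higher. For none of the 9 did all runners lie below all controls, as they did for 0.548% of all genes. Below, runners 2 to 5 are set against the controls for single genes, with runner 1 set apart after the values were seen. The share of all genes with that order was not taken, so it is description only. The median difference of the 9 genes was -0.28 on the log2 scale, and that of all genes was 0.00091. The differences ran from -0.089 for Gsn to -0.37 for Tbx18. At an unadjusted p under 0.05 there were 5 of the 9, Tbx18, Pou3f4, Aqp1, Otor and Car3, where 3.92% of all genes were lower at that level. None of the 9 was higher at that level, as 3.21% of all genes were. That count was 8 without runner 1, where 8.59% of all genes were lower at that level. It was 1 without runner 3 or without runner 4, 2 without control 2 or without control 5, and 3 without control 4. The share of all genes was not taken in those later fits, so their counts cannot be set beside it. The median difference was -0.18 without runner 4.

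**Figure D1:**
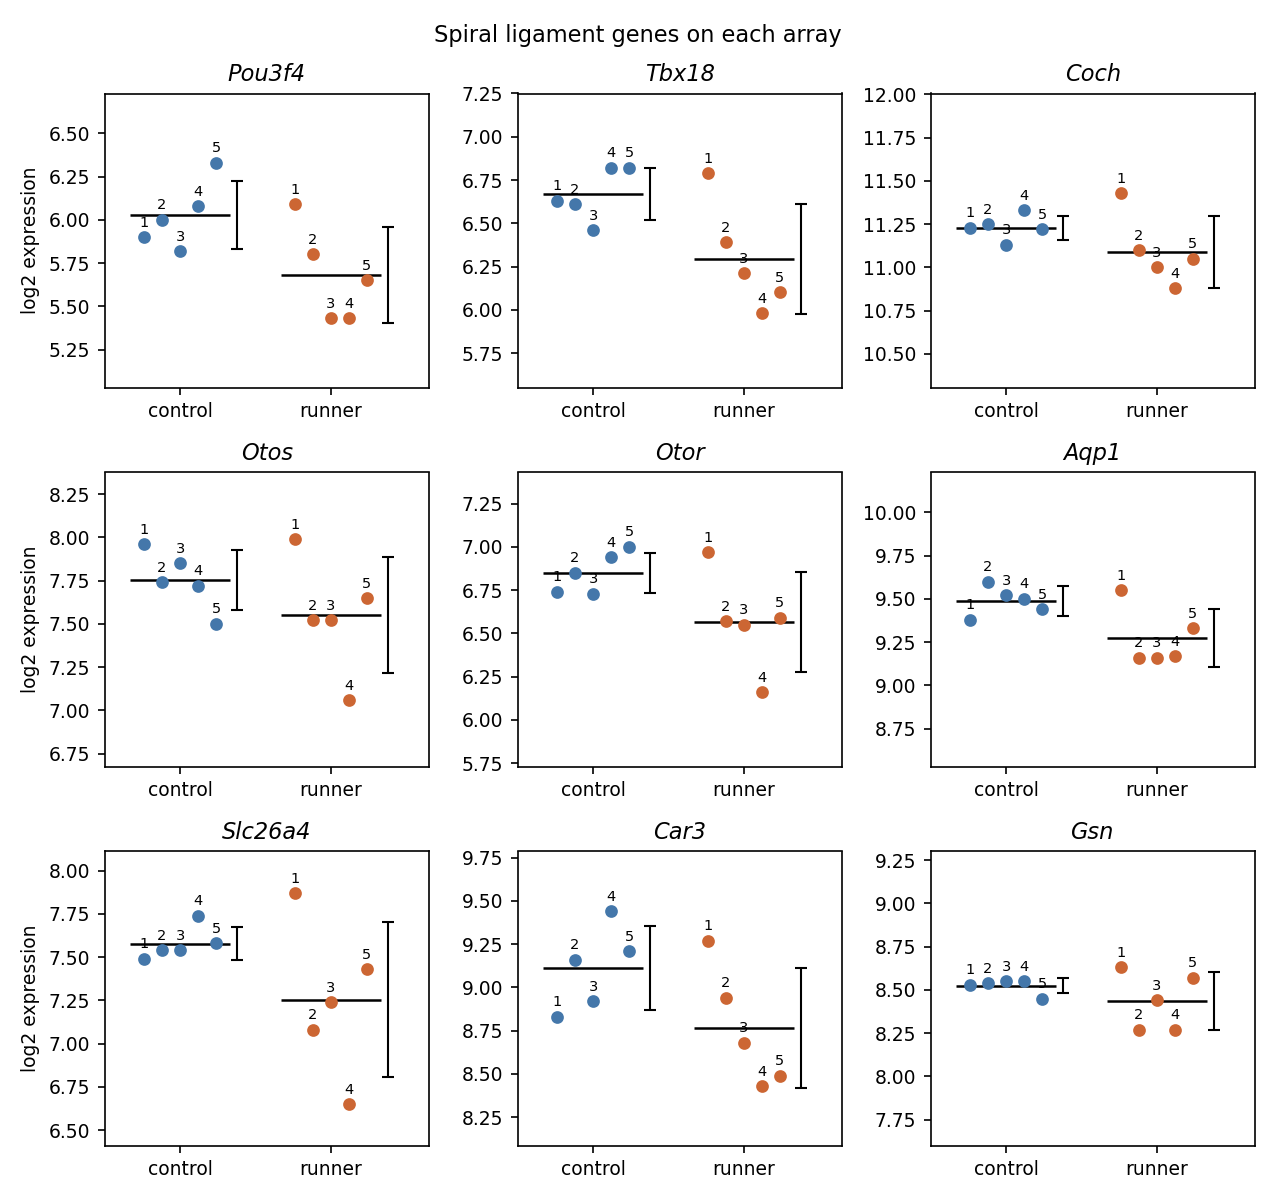
Log2 expression (vertical axis, the same span in every panel) of the 9 genes on the 5 control and 5 runner arrays; numbers are replicates, lines are means and bars are SD. Runner 1 is the highest runner in all 9 panels and lies at or above the middle of the controls, while the other runners mostly lie below it.

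Pou3f4 and Tbx18 are regulators of the mesenchyme around the developing ear, and loss of either causes deafness with defective fibrocytes in mice. Pou3f4, on the X chromosome and mutated in a human X-linked deafness, had log2 levels of 5.90, 6.00, 5.82, 6.08 and 6.33 in controls 1 to 5 and 6.09, 5.80, 5.43, 5.43 and 5.65 in runners 1 to 5. Runners 2 to 5 lay below every control, and runner 1 lay above all controls but control 5. The means were 6.03 ± 0.20 (SD, n = 5) and 5.68 ± 0.28 (SD, n = 5), a difference of -0.35 ± 0.13 (SE; limma adjusted p = 0.608). Tbx18, a T-box factor, had log2 levels of 6.63, 6.61, 6.46, 6.82 and 6.82 in controls 1 to 5 and 6.79, 6.39, 6.21, 5.98 and 6.10 in runners 1 to 5. Here too runner 1 lay among the controls and the 4 other runners lay below all of them. The difference was -0.37 ± 0.13 (SE; limma adjusted p = 0.607), the largest of the 9, with a 95% interval from -0.66 to -0.086.

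The 3 genes of secreted proteins were lower to different degrees. Coch encodes cochlin, an abundant matrix protein of the ligament, which is mutated in a human dominant deafness. Its log2 levels were 11.23, 11.25, 11.13, 11.33 and 11.22 in controls 1 to 5 and 11.43, 11.10, 11.00, 10.88 and 11.05 in runners 1 to 5. The controls kept within a narrow range, the highest of the 10 arrays was runner 1, and the 4 other runners were the 4 lowest arrays. The difference was -0.14 ± 0.090 (SE; limma adjusted p = 0.773), with a 95% interval from -0.33 to 0.054. It was -0.087 without runner 4 and -0.23 without runner 1. Otos encodes otospiralin, a small protein that fibrocytes secrete and that mice need for normal hearing. Its log2 levels were 7.96, 7.74, 7.85, 7.72 and 7.50 in controls 1 to 5 and 7.99, 7.52, 7.52, 7.06 and 7.65 in runners 1 to 5. Only runner 4 lay below all controls, so the groups overlapped more than for Coch, and the difference was -0.20 ± 0.14 (SE; limma adjusted p = 0.784). It was -0.082 without runner 4. Otor encodes otoraplin, a secreted protein of the MIA family. Its log2 levels were 6.74, 6.85, 6.73, 6.94 and 7.0 in controls 1 to 5 and 6.97, 6.57, 6.55, 6.16 and 6.59 in runners 1 to 5. Runners 2 to 5 lay below every control, with runner 4 lowest, and the difference was -0.28 ± 0.12 (SE; limma adjusted p = 0.671). It was -0.18 without runner 4.

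Of the transport genes, Aqp1 encodes a water channel found in fibrocytes that line the bony side of the ligament. Its log2 levels were 9.38, 9.60, 9.52, 9.50 and 9.44 in controls 1 to 5 and 9.55, 9.16, 9.16, 9.17 and 9.33 in runners 1 to 5. Runners 2 to 5 lay below every control and within a narrow range, and the difference was -0.21 ± 0.080 (SE; limma adjusted p = 0.618). Red cell and vessel genes were lower too: all 6 measured genes of the erythroid list and all 7 of the endothelium list had lower means in runners, with no gene of either past the test. The erythroid list mean ranged from 7.94 to 8.35 in controls and from 7.77 to 8.26 in runners, and the endothelium mean from 6.70 to 6.87 and from 6.59 to 6.83. Their part in the Aqp1 values was not tested.

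Slc26a4 encodes pendrin, an exchanger of chloride, iodide and bicarbonate whose loss causes deafness with an enlarged inner ear duct. Its log2 levels were 7.49, 7.54, 7.54, 7.74 and 7.58 in controls 1 to 5 and 7.87, 7.08, 7.24, 6.65 and 7.43 in runners 1 to 5. The runners covered both the highest and the 4 lowest arrays, and their SD was 4.82 times that of the controls, the largest ratio of the 9. The difference was -0.32 ± 0.17 (SE; limma adjusted p = 0.723), and it was -0.17 without runner 4. Other genes of cells that hold pendrin were lower in 5 and higher in 3 of 8, none past the test, with a median difference of -0.019. The 2 with the smallest p were Epyc at -0.52 ± 0.15 (SE; limma adjusted p = 0.583) and Anxa1 at -0.24 ± 0.11 (SE; limma adjusted p = 0.681).

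Car3, a carbonic anhydrase of low activity, had log2 levels of 8.83, 9.16, 8.92, 9.44 and 9.21 in controls 1 to 5 and 9.27, 8.94, 8.68, 8.43 and 8.49 in runners 1 to 5. Runners 3 to 5 lay below every control, and the difference was -0.35 ± 0.16 (SE; limma adjusted p = 0.690). The fat and muscle lists did not share this order of runners, though runner 4 was also the lowest runner of the adipocyte list. Among controls, Car3 and the adipocyte mean ran in the same order, lowest in control 1 and highest in control 4. Control 4 was the highest control of the muscle list too. The adipocyte mean ranged from 5.39 to 5.75 in controls and from 5.79 to 6.23 in runners, with all 7 measured genes higher in runners and none past the test. The muscle mean was highest in runner 3 at 8.74 and lowest in runner 2 at 7.79, with controls from 7.82 to 8.55. Of 10 muscle genes 8 had lower means in runners, none past the test. The part of fat and muscle in the Car3 values was not tested. Gsn, which encodes gelsolin, had log2 levels of 8.53, 8.54, 8.55, 8.55 and 8.45 in controls 1 to 5 and 8.63, 8.27, 8.44, 8.27 and 8.57 in runners 1 to 5. Runner 1 was its highest array, runner 5 lay above every control too, and the difference of -0.089 ± 0.075 (SE; limma adjusted p = 0.821) was the smallest of the 9. Leaving out runner 2 gave -0.047, leaving out runner 4 gave -0.048 and leaving out runner 1 gave -0.14.

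**Figure D2:**
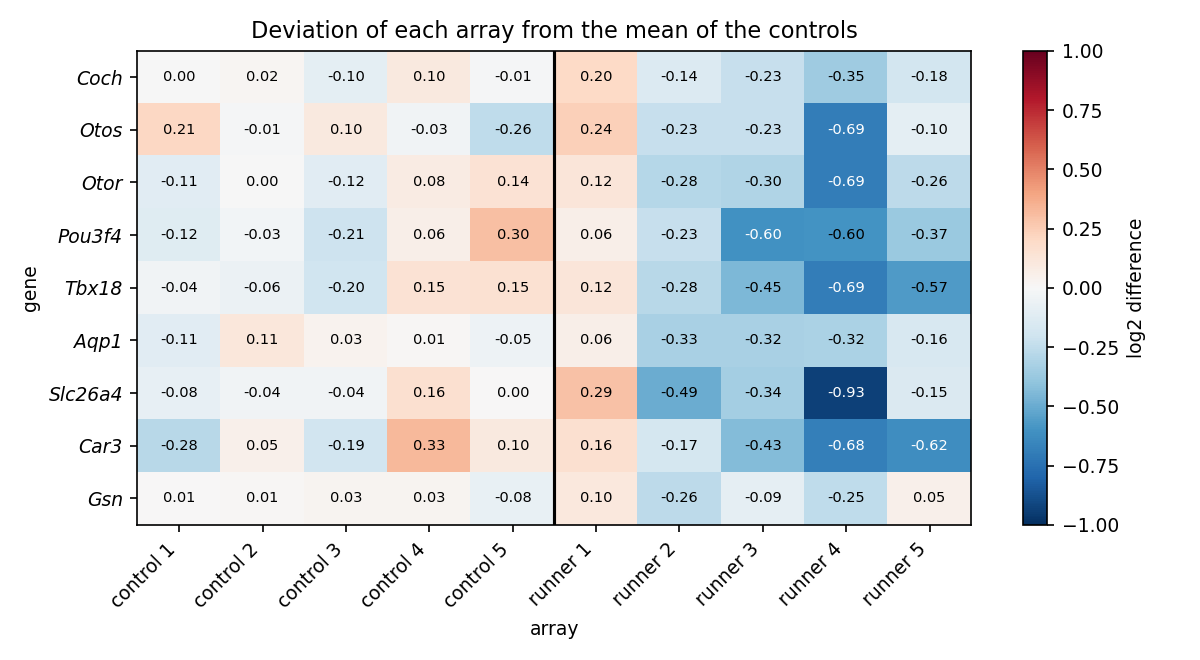
Log2 difference of each array (columns) from the mean of the 5 controls for the 9 genes (rows); blue is lower and red higher, and the line parts controls from runners. Runner 1 is above the control mean in all 9 rows, and runners 2, 3 and 4 are below it in all 9.

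The 9 genes varied together from array to array, and more among runners than among controls. All 9 were above the control mean in runner 1 (median 0.12 on the log2 scale), and all 9 were below it in runners 2, 3 and 4 (medians -0.26, -0.32 and -0.68). In runner 5 there were 8 below it (median -0.18). Runner 4 was the lowest runner for 6 genes, Coch, Otos, Otor, Tbx18, Slc26a4 and Car3. The medians of the controls lay from -0.098 to 0.085, but the deviations are taken from the mean of these same controls. Single genes in controls ranged from -0.28 in control 1 to 0.33 in control 4. The SD was larger in runners for all 9 genes, as it was for 67.6% of all genes. After each group's mean was removed, all 36 pairs of the 9 genes correlated above 0 over the 10 arrays, from 0.28 between Car3 and Gsn to 0.93 between Otor and Slc26a4, with a median of 0.75. Coch was most like Tbx18 (0.93), Pou3f4 most like Tbx18 (0.88), Car3 most like Tbx18 (0.92), Otos most like Slc26a4 (0.82) and Aqp1 most like Gsn (0.79). Genes on 1 array share its sample and its labelling, so these are descriptions. No such count was taken for pairs of other genes, so whether the 9 were more alike than other genes was not tested. Without runner 1 and control 1, 29 of the 36 pairs correlated above 0 over 8 arrays and the median was 0.52.

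The size of the differences depended on the runners at either end. Leaving out runner 1, the highest runner for all 9 genes, must enlarge every difference, and leaving out runner 4 must shrink those of the genes for which it was lowest, so neither direction is a finding. Without runner 4 the differences were -0.082 for Otos, -0.087 for Coch, -0.18 for Otor, -0.17 for Slc26a4, -0.26 for Car3, -0.29 for Pou3f4, -0.29 for Tbx18, -0.19 for Aqp1 and -0.048 for Gsn. Without runner 1 they were -0.31 for Otos, -0.23 for Coch, -0.38 for Otor, -0.48 for Slc26a4, -0.48 for Car3, -0.45 for Pou3f4, -0.50 for Tbx18, -0.28 for Aqp1 and -0.14 for Gsn. None of the 9 passed in either fit (limma adjusted p between 0.815 and 0.956 without runner 4, and between 0.0513 and 0.419 without runner 1), where 0.185% of all genes were lower and passed without runner 1. With both runner 1 and control 1 left out, Tbx18 (-0.51 ± 0.11, SE; limma adjusted p = 0.0470) and Aqp1 (-0.31 ± 0.065, SE; limma adjusted p = 0.0479) were just under the threshold, where 0.981% of all genes were lower and passed. Control 1 lay below the mean of the other controls for 7 of the 9 genes, so this choice too enlarges most differences. The labels give no reason to leave out either array, so these 2 values describe the other 8 arrays only.

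**Figure D3:**
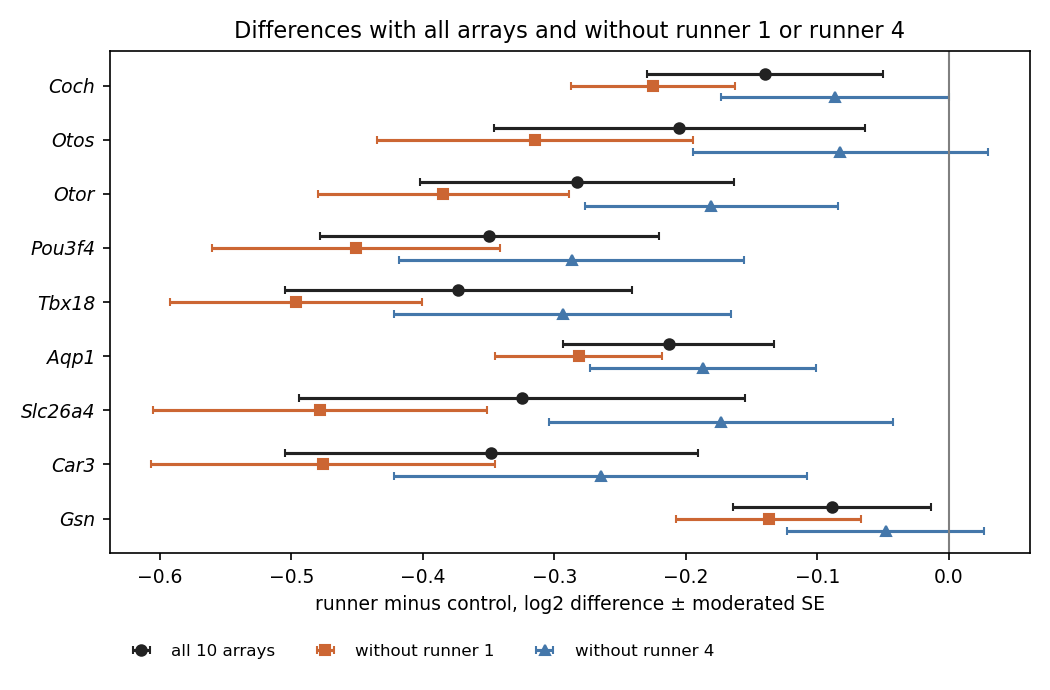
Log2 difference, runner minus control, of the 9 genes with its moderated SE as a bar, from all 10 arrays (black circles), without runner 1 (orange squares) and without runner 4 (blue triangles). The orange points lie further from 0 than the black ones, which follows from leaving out the highest runner, and the blue points lie nearer to 0, with Otos at -0.082 and Gsn at -0.048.

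The other fibrocyte, mesenchyme and fibroblast lists had smaller median differences than the 9 genes. Of all genes 49.5% had a lower mean in runners, and 3.92% were lower at an unadjusted p under 0.05. In a list of ion transport and coupling genes known from fibrocytes, 8 of 11 measured genes had lower means in runners and 3 higher, none past the test and none at an unadjusted p under 0.05, with a median difference of -0.12. Slc12a2, the sodium, potassium and chloride cotransporter that fibrocytes use to take up potassium, differed by -0.21 ± 0.099 (SE; limma adjusted p = 0.698). The potassium channel gene Kcnj16 differed by -0.14 ± 0.077 and the caveolin gene Cav1 by -0.099 ± 0.058. In a list of regulators of head and ear mesenchyme, 13 of 14 genes had lower means and 1 higher, none past the test and none at an unadjusted p under 0.05, with a median of -0.11. Efnb2, the gene of a ligand of Eph receptors, differed by -0.17 ± 0.080 (SE; limma adjusted p = 0.704), the T-box gene Tbx1 by -0.19 ± 0.10 and the forkhead gene Foxc1 by -0.19 ± 0.10. None of the general fibroblast genes passed the test, and 1, Dcn, was lower at an unadjusted p under 0.05. Of 13 measured, 8 were lower and 5 higher, with a median of -0.053. Of these the proteoglycan genes Dcn and Lum differed by -0.22 ± 0.088 and -0.17 ± 0.10, Postn by -0.22 ± 0.11 and Vcan by 0.10 ± 0.062 (SE). Whether these lists differed from the 9 genes was not tested.

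The high value of runner 1 was shared by lists of other cell types. Runner 1 was the highest runner for 9 of the 14 other lists, among them macrophage, osteoblast, erythroid, endothelium and B lineage genes and the cochlear genes, and the lowest runner for the brain list. Runner 4 was the lowest runner for 6 of them, including all 3 fibrocyte, mesenchyme and fibroblast lists. The list mean of macrophage genes was 7.24 in runner 1, 6.82 to 6.86 in the other runners and 7.04 to 7.23 in controls, with all 8 genes lower and none past the test. Bone genes did not follow this order: the osteoblast mean was 7.90 in runner 1 but 8.0 to 8.22 in controls, so no runner reached the controls. In that list 8 of 9 genes were lower and 2 passed the test, Bglap (-0.85 ± 0.066) and Bglap2 (-0.95 ± 0.083), near-identical osteocalcin genes whose signals may not be separate. The cochlear list had all 9 genes lower and none past the test. Its mean ranged from 5.58 to 5.83 in controls and from 5.29 to 5.84 in runners, and was 5.84 in runner 1. Of the strial genes of this list, Tyr and Dct differed by -0.37 ± 0.11 (SE; limma adjusted p = 0.583) and -0.32 ± 0.12 (SE; limma adjusted p = 0.616). They were named for having the smallest p of the list. Kcnq1, also of the stria, differed by -0.16 ± 0.081 (SE; limma adjusted p = 0.718). In the B lineage list all 7 genes were lower, none past the test, and the mean was 6.54 to 6.88 in controls and 5.99 to 6.47 in runners. Brain genes were higher in 6 and lower in 1 of 7 and meningeal genes lower in 7 of 8, none past the test. The brain mean ranged from 8.08 to 8.32 in controls and from 8.08 to 8.58 in runners, and the meningeal mean from 7.36 to 7.79 and from 7.39 to 7.57. Several of these lists differed as much as the 9 genes or more. The lists were chosen with earlier results of these data known. Of all genes 49.5% had a lower mean in runners, and at an unadjusted p under 0.05, 3.92% were lower and 3.21% higher. At that level there were 7 of 7 B lineage genes (median difference -0.47) and 7 of 9 osteoblast genes (median -0.40), all lower. There were 5 of 7 adipocyte genes, all higher (median 0.32), and 4 of 8 macrophage (median -0.23), 4 of 9 cochlear (median -0.21) and 2 of 6 erythroid genes (median -0.23), all lower. At that level there were also 2 of 8 pendrin cell genes, 1 of 13 fibroblast genes and 1 of 8 meningeal genes, all lower. Of 7 brain genes 1 was at that level, and it was higher. No muscle or endothelium gene was. The part of these cell types in the values of the 9 genes was not tested.

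**Figure D4:**
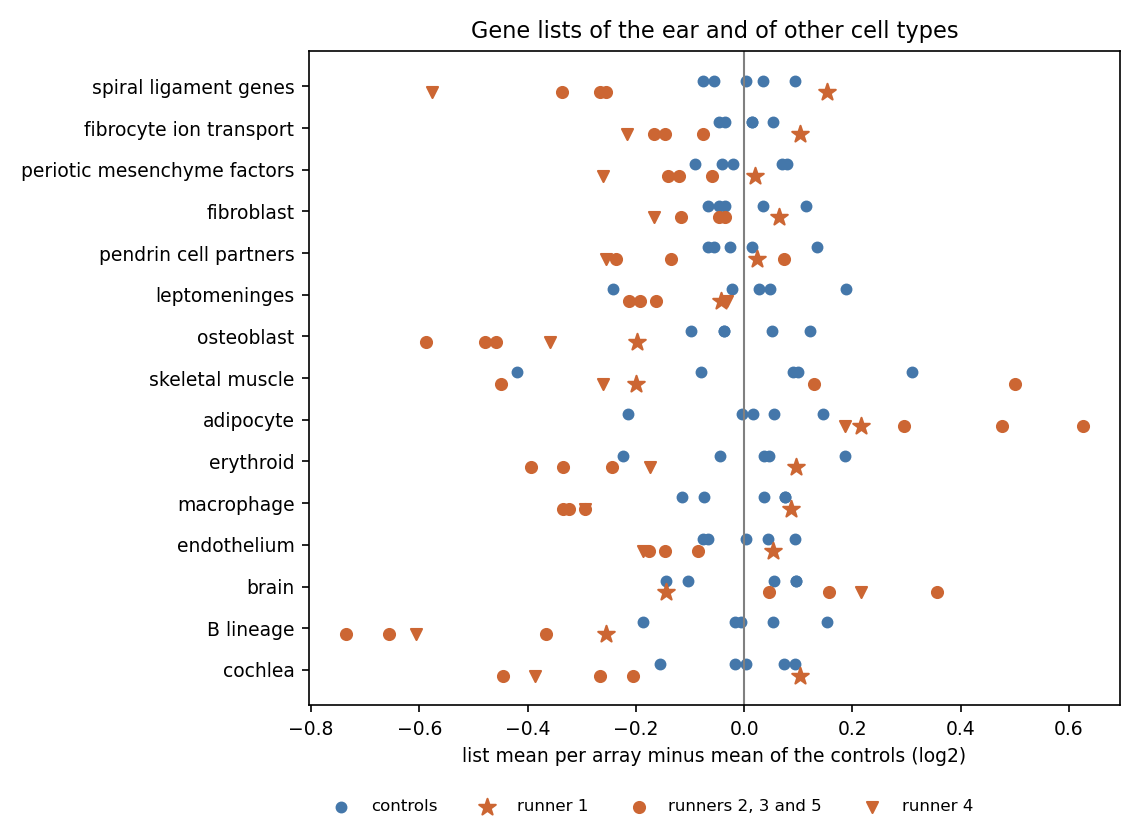
Mean of each gene list per array minus the mean of the 5 controls (horizontal axis, log2), with controls in blue and runners in orange; the star is runner 1 and the triangle runner 4. For the spiral ligament genes the star lies to the right of all controls and the 4 other runners lie to the left of them, whereas for osteoblast and B lineage genes the star too lies to the left of every control.

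The genes most like the 9 across arrays were sought among 5024 genes with a mean log2 level of at least 7. The 9 themselves and genes with predicted, Riken clone or non-coding symbols had been left out of these. Likeness was the correlation with the mean of the 9 over the 10 arrays after each group's mean was removed. The nearest were the interferon receptor gene Ifnar2 (0.99), Trf, which encodes the iron carrier transferrin (0.98), Fam234a (0.98), Trim56 (0.98) and the translation factor gene Eef2 (0.97). Cnmd, a cartilage gene (0.97), the connexin gene Gjb2 (0.97), Hhatl (0.97), Ppp1r1a (0.96) and the growth factor receptor gene Fgfr2 (0.96) followed. Gjb2, mutated in a common inherited deafness, was also in the ion transport list. Its log2 level was 9.05 in runner 1, 7.98 in runner 4 and 8.43 to 8.68 in controls, so it had the same highest and lowest arrays as Coch, and its difference was -0.16 ± 0.15 (SE; limma adjusted p = 0.850). The difference between groups was not used in this ranking, and it ran from -0.37 ± 0.17 for Hhatl to -0.0056 ± 0.048 for Eef2, with no gene of the 10 past the test.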

How the data were processed

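RNA of inner ear tissue was measured on 1 array per sample. The deposited values are log2 expression per probe set, made by the authors with RMA (background correction, normalization between arrays, probe summary) and Partek, per the submitters' processing notes; versions, chip and genome build were not given in the sources used here. Of 39295 probe sets, 30130 had 1 gene symbol. The probe set with the highest mean was kept per gene, which left 29766 genes, and 827 symbols were updated to RefSeq names. Each of the 9 members had 1 probe set.

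All 29766 genes were fitted with limma 3.58.1 in R 4.3.3 (a two-sided test of group with no other term, p adjusted over all genes by Benjamini-Hochberg, threshold 0.05). The fit was tested on simulated data. Differences are runner minus control with the moderated standard error, and intervals are 95%. The members and the 14 other gene lists (124 of 136 genes measured) were chosen with earlier results of these data known, and so were the alternatives. Named genes are the members, the 4 genes with the smallest p of each of the 3 fibrocyte and mesenchyme lists, 2 of each other list, and the 10 most like the members. RefSeq sequences (GRCm38.p6) before the start were searched for motifs chosen after the values were seen. As alternatives, dim genes were filtered, moderation was trended, robust or omitted, arrays were quantile-normalized again, centred on their medians or weighted, and probe sets were averaged. Others were a replicate block, a threshold of 0.1 and arrays left out. Python 3.11.15 and matplotlib 3.10.9 drew the figures.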

Additional observations from a re-analysis of the deposited data

Results flagged for a closer look

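In 2 of 46 groups of 5 arrays (the 9 genes and 14 other lists in runners and in controls), 1 array stood far from its nearest neighbour relative to the range of the group. Chance flags about 1 in 20. Gsn in controls was one, where control 5 at 8.45 lay below the others at 8.53 to 8.55 (gap 0.766 of the range). The macrophage list mean in runners was the other, where runner 1 at 7.24 lay above the others at 6.82 to 6.86 (gap 0.897 of the range). By this measure runner 1 was not set apart for any of the 9 spiral ligament genes.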

How the results depend on the processing

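All 9 genes stayed lower in runners in all 189 combinations of gene and alternative, and 187 of them did not pass the test. Many of these signs were fixed beforehand, so the 189 are not separate support. Filtering dim genes, changing moderation, averaging probe sets, the replicate block and the threshold of 0.1 left every difference as it was. Leaving out runner 1, the highest runner for all 9, could only enlarge the differences. The number of genes passing was 0 in each alternative but 1: it was 2 without runner 1 and control 1. With all 10 arrays, adjusted p ranged from 0.158 to 0.839 over the genes and alternatives. The median difference ranged from -0.41 to -0.18. The number of genes at an unadjusted p under 0.05 was 5 as reported, 2 without moderation and 3 with a replicate block. It was 4 with dim genes filtered or arrays centred on their medians, and 7 with array weights. It was 1 to 8 with each array left out in turn. The cause was not tested, and the share of all genes at that level was taken only as reported and without runner 1. Replicate numbers are shared by the groups, but the deviations of same-numbered arrays correlated at -0.25 to 0.28, so they were not taken as pairs, and under the replicate block none of the 9 genes passed. Precision is limited by having 5 arrays per group.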

Other observations

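Some genes of the fibrocyte and mesenchyme lists split the runners differently from the 9 genes, with runner 2 beside runner 1. Slc4a11, a transporter gene of ligament fibrocytes, had log2 levels of 9.11 and 8.81 in runners 1 and 2 and 7.83, 7.80 and 7.95 in runners 3, 4 and 5, with controls between 8.55 and 8.87. Its difference was -0.38 ± 0.23 (SE; limma adjusted p = 0.764). Sox9, a transcription factor gene of cartilage and the ear, had 7.82 and 7.90 in runners 1 and 2 and 7.35, 7.32 and 7.40 in runners 3, 4 and 5, with controls between 7.61 and 7.86. Its difference was -0.21 ± 0.12 (SE; limma adjusted p = 0.736). These 2 genes were singled out after their values were seen, and the labels do not part the runners in this way.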
